A study of Mus musculus with 9 samples.

Results

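The comparison set the sensory epithelium of the mouse utricle at embryonic day 17.5 (E17.5) against the day of birth (P0), chosen as the 3 E17.5 and 3 P0 libraries of a series of 9. The other 3 libraries are of a later postnatal age and entered only an alternative fit. All mice were of the Swiss Webster strain, and the labels name no genotype, transgene, drug or sort. The utricles were dissected out, their sensory epithelia were isolated, and total RNA was sequenced. Nothing in the labels tells whether replicates were different animals, litters or pools. Every library held RNA of both sexes, by the sex-linked genes given at the end, so none came from a single animal. Whether libraries shared animals is not known. The tests therefore measure the spread among these libraries, and part of it may be technical. Values are RPKM, reads scaled to gene length and to the number of mapped reads of the library, for 10102 genes. Replicates 1, 2 and 3 are given in that order throughout, and levels with an error are the mean ± SD (n = 3).

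The utricle is an inner ear organ that senses gravity and linear acceleration. Its epithelium holds hair cells, each with a bundle of actin-filled stereocilia that opens transduction channels when bent, and supporting cells, which surround the hair cells and secrete parts of the gelatinous membrane above them. Calcium carbonate crystals, the otoconia, lie on that membrane. The fluid over the epithelium is rich in potassium, which transporting cells at its border secrete. Around birth new hair cells are still added, and birth itself brings changes in hormones, oxygen supply and diet.

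Library depth was 54899946 to 63963448 alignments, per the file header. Log-scale levels correlated at 0.988 to 0.989 within E17.5, at 0.983 to 0.992 within P0 and at 0.953 to 0.964 between the ages, as a description across genes. The lower correlations within P0 were those of replicate 2. Ribosomal protein genes took 11.7% ± 0.6 of summed RPKM at E17.5 and 11.2% ± 0.91 at P0, and mitochondrially encoded genes took 14.1% ± 0.81 and 15.0% ± 0.84 (two-sided exact permutation p = 0.5 for each, with 0.1 the smallest possible). The spliceosomal RNA U1 was at 223.3, 4.322 and 208.6 RPKM at E17.5 and at 19.7, 217.2 and 7.794 RPKM at P0, so it separated libraries across the ages. Defining genes of the labelled tissue were well measured in all 6 libraries. Pou4f3, Otof and Ush1c for hair cells, Sox2 and Tectb for supporting cells and Otol1 for the otoconial matrix each stood above 75 RPKM in every library.

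Of the 10102 genes, 1752 were higher at P0 (17.3%) and 1571 were lower (15.6%), together 32.9%, at a Benjamini-Hochberg adjusted p under 0.05 in limma on log2(RPKM + 1). Below, rose and fell are used of these calls, and fold changes are fitted on that scale, where the added 1 shrinks changes of weakly expressed genes. The median log2 change over all genes was -0.01. The count of lower genes was 926 without E17.5 replicate 2 and 1016 without P0 replicate 3. The groups did not overlap for 2355 higher genes (23.3%) and 2369 lower genes (23.5%), together 46.8%. Rises outnumbered falls among changes of at least 1.5-fold, with 586 genes called higher (5.80%) against 349 lower (3.45%). At 2-fold or more, 131 rose (1.30%) and 102 fell (1.01%), but after quantile normalization 110 rose and 112 fell. Among genes averaging at least 5 RPKM at 1 age, 468 rose and 329 fell by 1.5-fold or more. For 2-fold or more these counts were 107 and 94. In units of expression, 367 called genes rose by at least 10 RPKM and 279 fell by as much, and 18 rose and 10 fell by at least 100 RPKM.

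The cell cycle list fell as a block, with 86 of 97 measured members lower, 1 higher and a median log2 change of -1.07. It held 52 of the 102 genes that fell at least 2-fold, and 50 lay outside it. Outside that list, the other lists held 1248 measured genes, of which 285 rose and 203 fell. The authors' table keeps a gene if it reached 5 RPKM in any of the 9 libraries, the later age included. Among the 815 genes with a mean under 5 RPKM at both E17.5 and P0, 258 were higher (31.7%) and 54 lower (6.63%), while the 9287 others gave 16.1% and 16.3%. Such low genes are counted below for each list described in which they make up 3 or more of the risers.

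**Figure D1:**
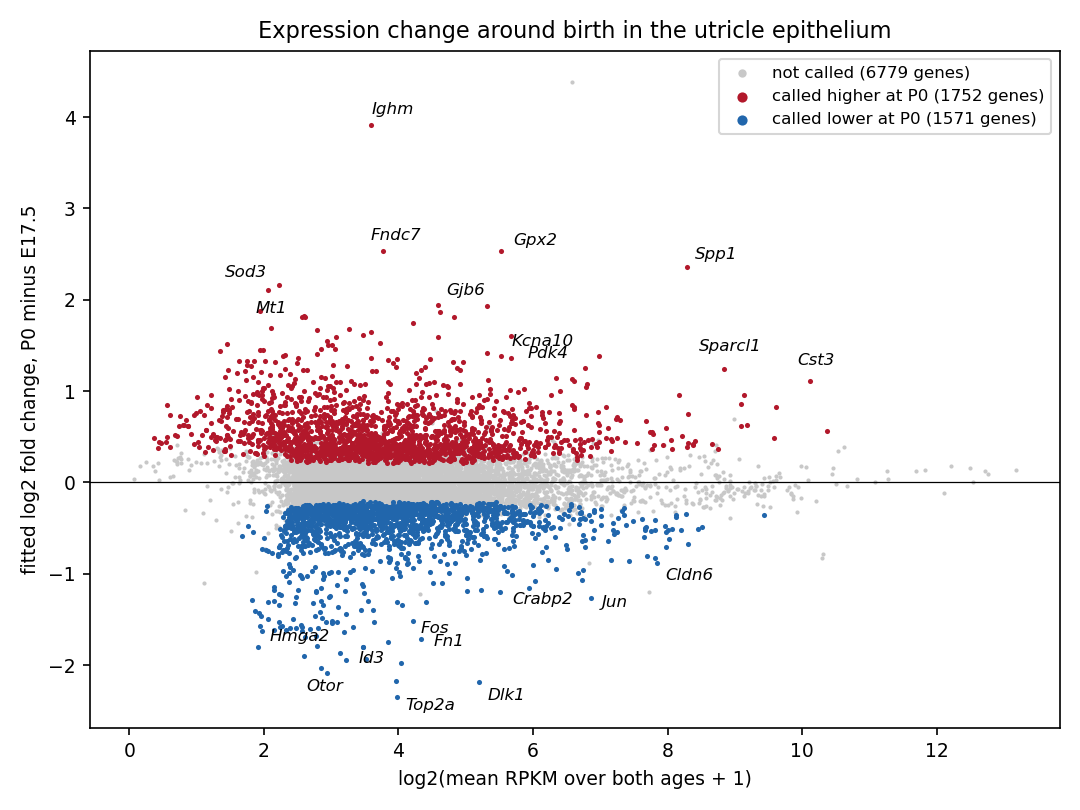
Fitted log2 fold change (P0 minus E17.5, y axis) against log2 of the mean RPKM over both ages plus 1 (x axis), 1 point per gene. The 1752 genes called higher lie above 0 and the 1571 called lower below it. Ighm, Fndc7, Gpx2 and Spp1 are labelled at the top, and Dlk1, Otor and the cell cycle gene Top2a at the bottom.

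**Figure D2:**
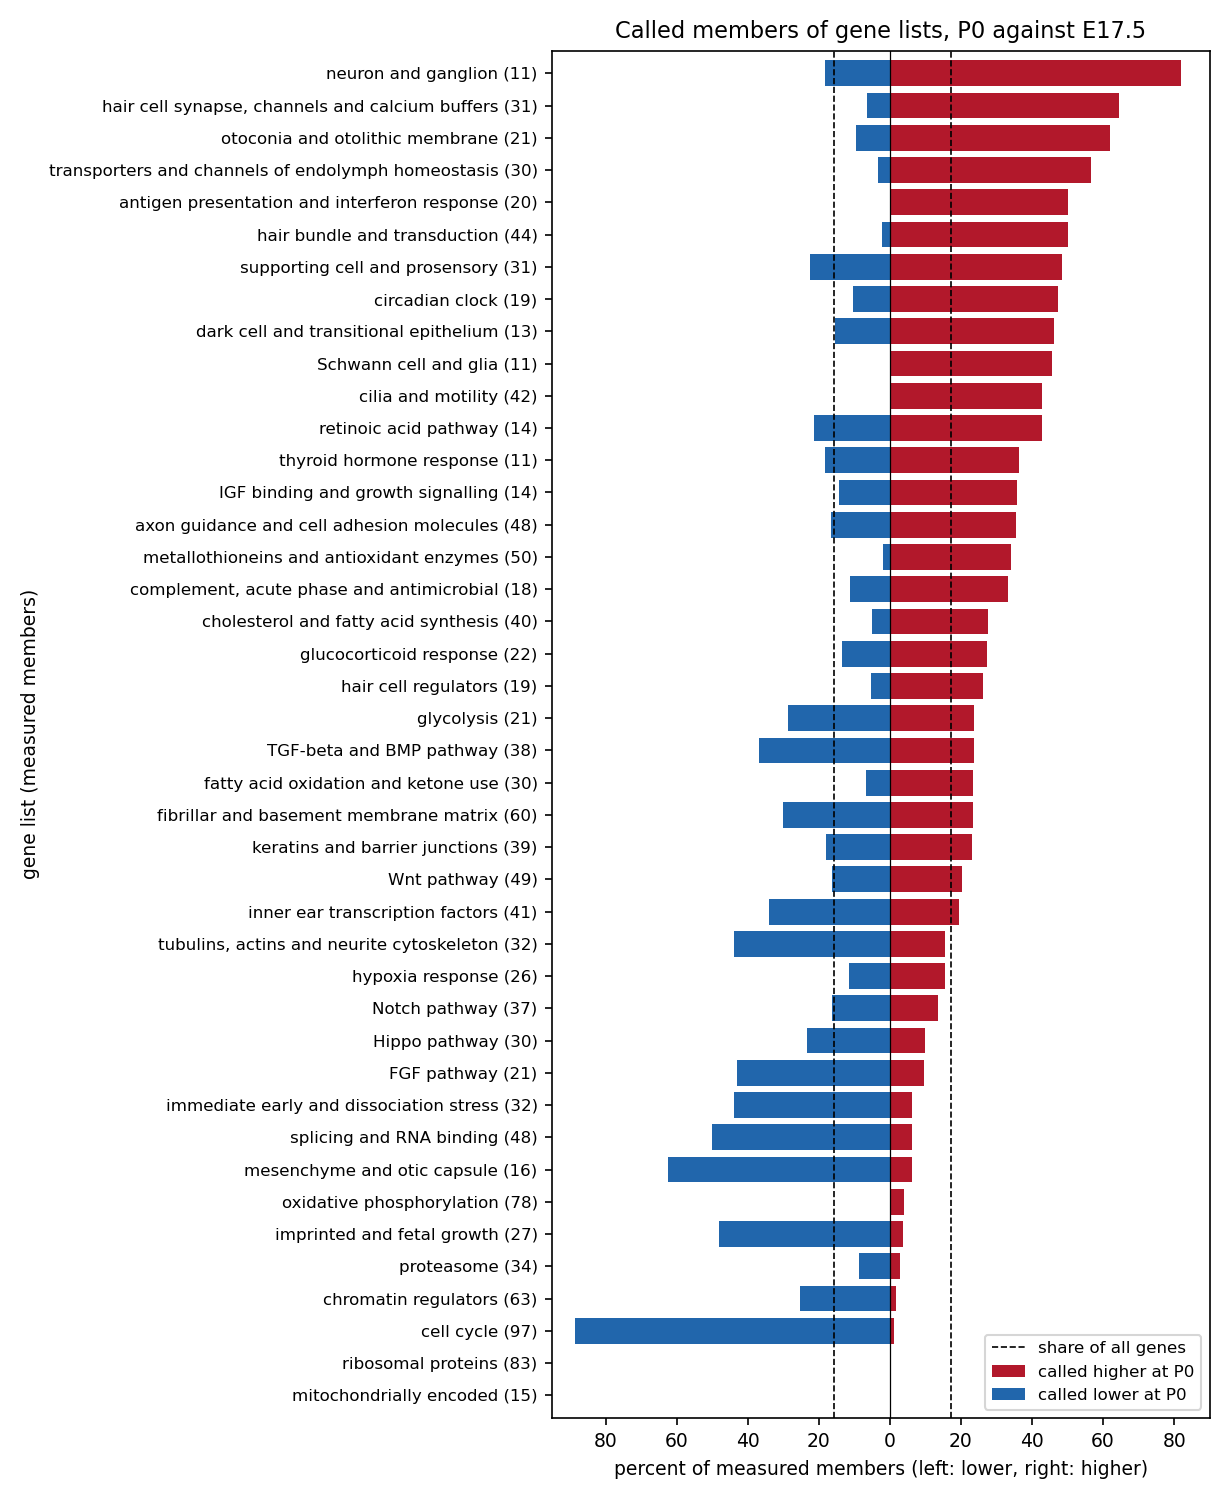
Percent of measured members called higher (right) or lower (left) at P0 for each gene list with at least 11 measured members, whose number is in parentheses. Dashed lines mark the shares over all genes, 17.3% higher and 15.6% lower. Hair cell, otoconial and endolymph lists extend far to the right, while the mesenchyme, splicing, imprinted and cell cycle lists extend to the left.

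Many genes of the working hair cell, its ion channels, synapse and calcium buffers, were higher at birth. Of 31 measured genes of synapse, channels and calcium buffers, 20 rose and 2 fell, with a median log2 change of 0.57. Kcna10, a voltage-gated potassium channel of the hair cell, was at 24.1, 27.2 and 22.5 RPKM at E17.5, then 73.1, 64.8 and 59.1 RPKM at P0. Its groups did not overlap, and the log2 change was 1.38 ± 0.10 (SE, adjusted p = 1.88e-05). Cabp2, a calcium-binding protein that tunes the presynaptic calcium channel, measured 70.1, 74.3 and 69.9 RPKM and then 150.5, 148 and 148 RPKM. The P0 libraries were within 3 RPKM of each other and far above every E17.5 library (log2 change 1.05 ± 0.08 SE, adjusted p = 2.33e-05). Slc17a8, which encodes the transporter that loads glutamate into synaptic vesicles, went from 23.2, 29.9 and 27.1 RPKM to 49.1, 57.6 and 52.98 RPKM (log2 change 0.97 ± 0.11 SE, adjusted p = 0.000172). Dnajc5b, a relative of the synaptic vesicle chaperone cysteine string protein, went from 17.2 ± 1.896 to 41.5 ± 2.76 RPKM, and Ocm, the calcium buffer oncomodulin, from 70.1 ± 8.27 to 123 ± 5.75 RPKM.

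Other risers of the same list were the purinergic channel P2rx2 (12.9 ± 0.496 to 25.7 ± 2.12 RPKM), the calcium buffer Calb2 (23.8 ± 2.07 to 41.6 ± 3.93 RPKM) and both subunits of the efferent acetylcholine receptor, Chrna9 (13.8 ± 0.8902 to 20.98 ± 2.04 RPKM) and Chrna10 (12.7 ± 0.629 to 24.1 ± 5.36 RPKM). Otof, the calcium sensor of vesicle release, was already abundant and rose by less. Its libraries were at 169.8, 182 and 174 RPKM at E17.5, then 295, 204 and 281 RPKM at P0, with replicate 2 the low P0 library (adjusted p = 0.0144, adjusted p = 0.0637 without P0 replicate 3). The presynaptic calcium channel Cacna1d and the ribbon gene Ctbp2 did not pass the test. The fallers were P2rx3 (14.3 ± 1.32 to 11.1 ± 0.376 RPKM, adjusted p = 0.0732 without E17.5 replicate 2) and Otor, a small secreted protein described with the matrix genes.

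In the hair bundle and transduction list, 22 of 44 measured genes rose and 1 fell, with a median of 0.35. Espn, an actin bundler of stereocilia, was at 59.5, 62.6 and 59.9 RPKM and then 128, 121 and 149.9 RPKM, a log2 change of 1.11 ± 0.10 (SE, adjusted p = 4.72e-05) with no overlap. Grxcr2, a protein of the stereocilia base, was at 55.5, 55.7 and 52.7 RPKM and then 94.3, 93.8 and 93.3 RPKM, so the libraries of each age were close together. Fscn2, another actin crosslinker, went from 21.4 ± 2.14 to 37.2 ± 0.928 RPKM, Ptprq, a phosphatase of the bundle, from 51.1 ± 1.34 to 86.7 ± 13.1 RPKM, and Atp2b2, the calcium pump of the bundle membrane, from 12.2 ± 0.1102 to 23.9 ± 3.02 RPKM. Transduction channel genes were low and rose, Tmc1 from 1.79 ± 0.04402 to 4.26 ± 1.09 RPKM and Tmc2 from 5.901 ± 0.0511 to 9.97 ± 1.86 RPKM, as did their partner Tmie (14.2 ± 1.57 to 20.03 ± 0.655 RPKM). Cib3, a calcium-binding protein of the transduction apparatus, is not a member of this list but was among the 12 largest rises named by the rule. Its libraries were at 18.3, 14.9 and 13.5 RPKM at E17.5, then 62.7, 61.8 and 61.1 RPKM at P0 (log2 change 1.94 ± 0.11 SE, adjusted p = 5.27e-06). Genes that did not pass the test included Cdh23, Pcdh15, Lhfpl5, Myo6, Myo15 and Strc, and Pls3, an actin bundler, fell from 14.6 ± 0.828 to 9.38 ± 0.836 RPKM.

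P0 replicate 2 was the low P0 library for several bundle genes. For Myo7a, a motor of the stereocilia, the P0 libraries were at 54.7, 40.1 and 53.2 RPKM against 37.8, 39.4 and 37.2 RPKM at E17.5 (adjusted p = 0.0425, adjusted p up to 0.143 without E17.5 replicate 1, 2 or 3 or P0 replicate 1 or 3). For the unconventional myosin Myo15b they were at 49.6, 23.3 and 57.7 RPKM against 8.88, 13.2 and 10.96 RPKM. Without that library 31 of the 44 bundle genes and 23 of the 31 synapse and channel genes were called higher. Leaving out another library lowered the count to as few as 17 in each list. Summed over the bundle list, levels were 1505 to 1542 RPKM at E17.5 and 1851 to 2098 RPKM at P0. The sample is a whole epithelium, so here and below fewer or more cells of a type and less or more RNA per cell cannot be told apart.

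Of 19 measured regulators of hair cell fate, 5 were higher and 1 was lower, with a median of 0.07. These are shares of 26.3% and 5.26%, against 17.3% and 15.6% of all genes. Atoh1, the factor that starts hair cell differentiation, was at 33.7, 37.3 and 32.4 RPKM and then 38.04, 39.4 and 44.9 RPKM. The groups did not overlap, but the log2 change of 0.24 ± 0.09 (SE) did not pass the test (adjusted p = 0.0787). Other factors of the hair cell rose. Pou4f3, needed for hair cell survival, was at 93.5, 86.3 and 76.96 RPKM and then 116, 123 and 119 RPKM (log2 change 0.48 ± 0.10 SE, adjusted p = 0.00454), and Gfi1, a repressor in the same cells, was at 65.3, 66.8 and 60.2 RPKM and then 97.9, 104 and 107 RPKM (log2 change 0.68 ± 0.09 SE, adjusted p = 0.000387). The homeobox gene Lhx3 went from 32.3 ± 1.35 to 49.95 ± 7.26 RPKM. Isl1, a homeobox factor of the early sensory region, fell from 57.05 ± 3.98 to 43.5 ± 2.83 RPKM.

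**Figure D3:**
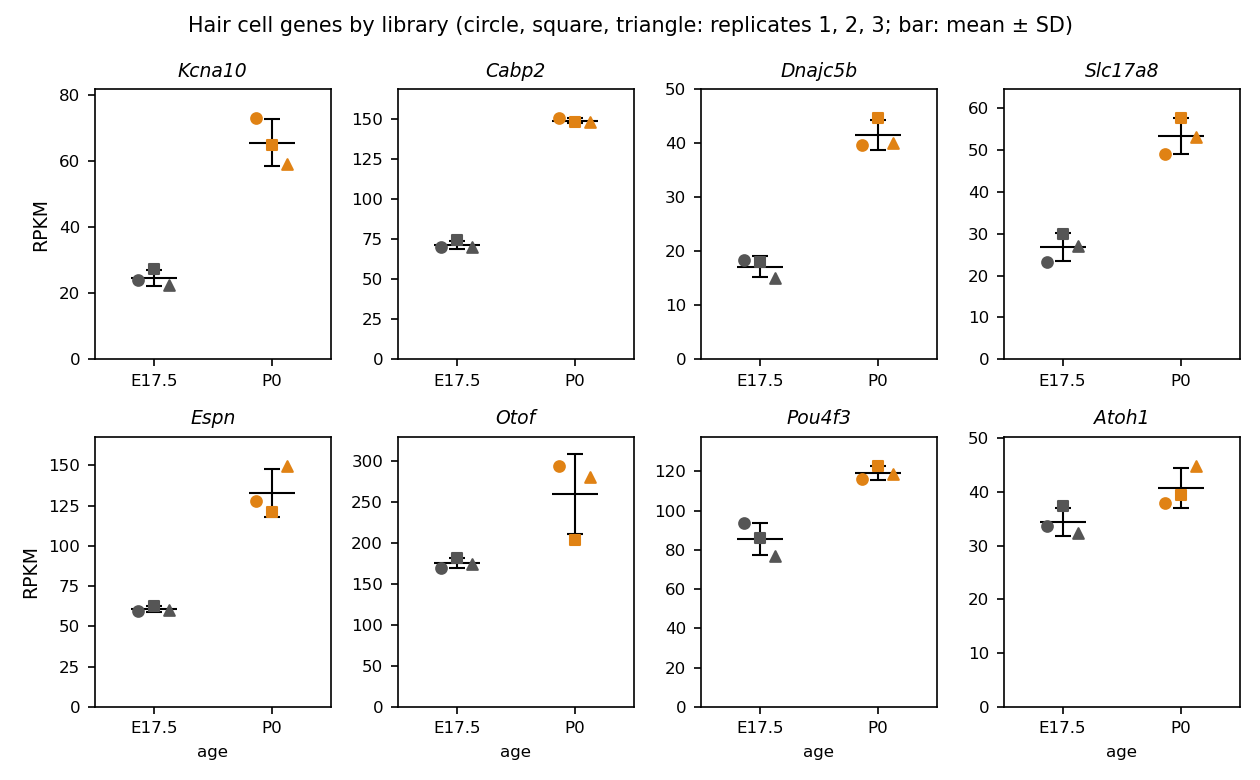
RPKM (y axis, from 0) of 8 hair cell genes by age (x axis), 1 point per library with replicates 1, 2 and 3 as circle, square and triangle, and the mean ± SD as bars. The P0 libraries lie above the E17.5 libraries in every panel, with P0 replicate 2 low for Otof, and the gap is small for Atoh1, which did not pass the test.

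Of the genes of cilia and motility, 18 of 42 were higher and 0 lower in limma, with a median of 0.23. At an unadjusted p under 0.05, 1 was lower. The axoneme proteins Rsph1 (8.61 ± 0.186 to 17.4 ± 1.503 RPKM), Dynlrb2 (46.3 ± 3.76 to 77.3 ± 5.41 RPKM) and Enkur (24.01 ± 1.53 to 36.3 ± 1.73 RPKM) were among them. Foxj1, the factor that drives motile cilium genes, was at 56.7, 53.7 and 47.5 RPKM and then 79.7, 89.03 and 91.2 RPKM (adjusted p = 0.000575). The intraflagellar transport genes of the list, which serve every kind of cilium, did not pass the test. Hair cells carry a single true cilium, the kinocilium, at the edge of the bundle.

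Supporting cell genes split. Of 31 measured members of the supporting cell and prosensory list, 15 rose and 7 fell (median 0.32). The gap junction gene Gjb6 was at 9.55, 8.19 and 8.74 RPKM and then 29.7, 39.9 and 41.6 RPKM, a log2 change of 1.94 ± 0.12 (SE, adjusted p = 7.84e-06). Its partner Gjb2 began higher and rose by less, from 55.7 ± 2.73 to 74.5 ± 5.44 RPKM. S100a1 (564 ± 52.9 to 1002 ± 71.6 RPKM) and S100b (43.5 ± 6.19 to 70.1 ± 8.84 RPKM), calcium-binding proteins, the glutamate transporter Slc1a3 (54.04 ± 7.05 to 81.4 ± 2.31 RPKM) and the glial and otic factor Sox10 (97.7 ± 9.16 to 137 ± 17 RPKM, adjusted p up to 0.0529 without E17.5 replicate 3 or P0 replicate 3) also rose. Sox2, the prosensory and supporting cell factor, was at 126, 104 and 105 RPKM and then 126, 141 and 134 RPKM, with E17.5 replicate 1 and P0 replicate 1 almost level, and did not pass the test (adjusted p = 0.0792).

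Sox10 and S100b also mark glia. Of 11 measured markers of Schwann cells and glia, 5 rose and 0 fell in limma (6 and 0 at an unadjusted p under 0.05), with a median of 0.48, and 1 fell without P0 replicate 2. Besides Sox10 and S100b the risers were 3 genes under 5 RPKM on average at both ages, Mal (1.89 ± 0.202 to 4.8 ± 0.847 RPKM), Gldn (0.271 ± 0.0679 to 1.103 ± 0.193 RPKM) and Pllp (0.931 ± 0.0985 to 2.298 ± 0.168 RPKM). The myelin gene Mbp did not pass the test. The summed level of these markers was 377.5 to 436.1 RPKM at E17.5 and 431.1 to 547.2 RPKM at P0, with overlapping ages. Of 4 measured melanocyte markers 3 rose and 0 fell in limma (4 and 0 at an unadjusted p under 0.05), namely Pmel (2.17 ± 0.135 to 3.71 ± 0.559 RPKM), Kit (6.096 ± 0.575 to 8.03 ± 0.0777 RPKM) and Kcnj10 (6.17 ± 0.6499 to 9.14 ± 0.767 RPKM), and the 4 summed to 20.93 to 26.43 RPKM at E17.5 and to 31.88 to 35.12 RPKM at P0. The part of glia and melanocytes in the supporting cell rises was not tested.

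The fallers included Lgr5, Id genes and Notch effectors. Lgr5, a receptor for R-spondins that marks a subset of supporting cells, was at 27.9, 30.8 and 33.8 RPKM and then 15.7, 15.4 and 18.4 RPKM (log2 change -0.86 ± 0.10 SE, adjusted p = 0.000227). Its relative Lgr6 was low and rose from 1.599 ± 0.216 to 4.902 ± 1.004 RPKM. Id3, an inhibitor of basic helix-loop-helix factors, was at 23.4, 18.4 and 21.3 RPKM and then 4.43, 7.62 and 4.99 RPKM, a log2 change of -1.75 ± 0.16 (SE, adjusted p = 5.72e-05). Id1 (28.4 ± 2.92 to 13.97 ± 2.29 RPKM) and Id2 (42.6 ± 3.01 to 20.4 ± 4.36 RPKM) fell with it, while Id4 rose from 50.8 ± 2.03 to 87.2 ± 3.05 RPKM. Of the Notch effectors, Hey1 fell from 33.4 ± 3.24 to 17.6 ± 2.05 RPKM and Hes1 from 4.14 ± 0.914 to 2.08 ± 0.633 RPKM, while Heyl rose from 33.4 ± 1.71 to 46.98 ± 1.15 RPKM. In the whole Notch list 6 of 37 fell and 5 rose (2 without E17.5 replicate 2 or P0 replicate 3, and 3 without E17.5 replicate 3), so 16.2% fell and 13.5% rose, close to the shares of all genes (15.6% and 17.3%).

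Several of the largest rises in RPKM lay in genes of secreted proteins, and which cells made them was not tested. In the list of otoconia and otolithic membrane genes, 13 of 21 rose and 2 fell, with a median of 0.45. Spp1, the phosphoprotein osteopontin found in mineralised tissues and in otoconia, was at 123, 89.4 and 91.7 RPKM at E17.5, then 475, 611 and 479 RPKM at P0. The lowest P0 library was more than 3 times as high as the highest E17.5 library (log2 change 2.36 ± 0.15 SE, adjusted p = 7.86e-06). Sparcl1, a calcium-binding matrix protein, was at 309.9, 265 and 245 RPKM and then 619, 684 and 627 RPKM, a gain of 370.0 RPKM (adjusted p = 9.63e-05). Its relative Sparc gained 512 RPKM from an already high level, 1069 ± 97.2 to 1580.1 ± 98.9 RPKM (adjusted p = 0.0131, adjusted p up to 0.0717 without E17.5 replicate 2 or 3). The tectorins, gel-forming glycoproteins of the membrane, both rose, Tectb from 387 ± 66.6 to 700.0 ± 69.7 RPKM and Tecta from 283 ± 6.41 to 380.5 ± 25.2 RPKM (adjusted p up to 0.0583 without E17.5 replicate 2 or P0 replicate 3).

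Otog, another glycoprotein of that membrane, went from 285 ± 11.7 to 391 ± 34.8 RPKM (adjusted p = 0.0645 without E17.5 replicate 2), and Otoa, which attaches such membranes to the cells below, from 118 ± 9.54 to 165 ± 9.82 RPKM. Of the matrix proteins of the crystal itself, Otol1 was at 439, 388 and 358 RPKM and then 525, 458 and 387 RPKM, with overlapping groups (adjusted p = 0.297), and Oc90 did not pass the test either. Nox3, the oxidase required for otoconia to form, was low and rose from 2.14 ± 0.436 to 7.296 ± 2.61 RPKM, and Otop1, a proton channel also required for them, fell from 55.8 ± 1.46 to 45.1 ± 4.04 RPKM (adjusted p up to 0.0779 without E17.5 replicate 1, 2 or 3 or P0 replicate 1 or 3).

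Other abundant risers were Cst3, the secreted protease inhibitor cystatin C, with the largest gain in RPKM among called genes, and the secreted cartilage-associated protein Mia1. Cst3 was at 687, 767 and 646 RPKM at E17.5, then 1317, 1733 and 1495 RPKM at P0, a gain of 815 RPKM (log2 change 1.11 ± 0.15 SE, adjusted p = 0.000547). Mia1 was at 429.9, 371 and 342 RPKM and then 657, 909.7 and 676 RPKM, with replicate 2 the highest P0 library. The chemokine Cxcl14 went from 59.04 ± 5.25 to 131 ± 2.17 RPKM, and the secreted protein Wfdc2 from 91.1 ± 10.96 to 156 ± 22.1 RPKM. Agt, the precursor of angiotensin, was near absent at E17.5 with 0.5898, 0.679 and 0.4498 RPKM and reached 5.41, 6.51 and 5.48 RPKM at P0 (log2 change 2.11 ± 0.11 SE, adjusted p = 4.21e-06).

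Of 30 measured genes of ion and fluid transport, the endolymph list, 17 rose and 1 fell, with a median of 0.36. Of the 17, 4 stayed under 5 RPKM on average at both ages. Atp1b1, a beta subunit of the sodium pump, was at 72.7, 76.1 and 63.9 RPKM and then 151, 161 and 139.7 RPKM (log2 change 1.08 ± 0.10 SE, adjusted p = 6.32e-05). Atp1b2, another beta subunit of the pump, went from 36.8 ± 1.04 to 64.8 ± 4.61 RPKM. Kcnq1, the potassium channel through which dark cells release potassium, rose from 4.57 ± 0.273 to 7.83 ± 0.236 RPKM, while its partner Kcne1 did not pass the test. Carbonic anhydrase Car2 (6.101 ± 0.663 to 12.2 ± 1.81 RPKM), the bicarbonate cotransporter Slc4a4 (4.81 ± 0.112 to 9.15 ± 1.29 RPKM) and the anion exchanger Slc26a4 (8.36 ± 0.249 to 10.96 ± 0.556 RPKM) rose. Ano1, a calcium-activated chloride channel, fell from 19.6 ± 1.58 to 9.72 ± 0.709 RPKM.

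Dark cells and the transitional epithelium lie beside the sensory patch. Of their 13 measured markers, a set that shares members with the endolymph list, 6 rose and 2 fell. The risers were 46.2%, against 17.3% of all genes, and the fallers 15.4%, near the 15.6% of all genes. Their summed level was 1841 to 2003 RPKM at E17.5 and 2366 to 2681 RPKM at P0. Markers listed for the cochlea, several of which the utricle also expresses, summed to 666.7 to 806.3 RPKM and then 1130 to 1259 RPKM, with 5 of 9 higher and 2 lower. Their part in the rises of hair cell, supporting cell and transport genes was not tested.

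Pdk4, the kinase that blocks the entry of pyruvate into the citric acid cycle, rose with little spread between libraries. It was at 27.9, 27.2 and 27.9 RPKM at E17.5, then 70.5, 77.4 and 69.9 RPKM at P0, and the ages stood far apart (log2 change 1.36 ± 0.08 SE, adjusted p = 5.87e-06). In the list of fatty acid oxidation and ketone use, 7 of 30 rose and 2 fell (median 0.06), and the fallers became 8 without P0 replicate 2. With all 6 libraries 23.3% rose and 6.67% fell, against 17.3% and 15.6% of all genes. Cpt1a, the gate for fatty acid entry into mitochondria, rose from 14.1 ± 0.762 to 20.8 ± 1.9 RPKM. Most of the beta-oxidation enzymes themselves, such as Acadm, Acadl and Hadha, did not pass the test.

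Glycolysis genes divided, 5 of 21 higher (3 without E17.5 replicate 3) and 6 lower. Their shares were 23.8% and 28.6%, against 17.3% and 15.6% of all genes. Pfkl (28.4 ± 4.74 to 15.7 ± 1.95 RPKM), Tpi1 (110.3 ± 20.7 to 67.5 ± 4.46 RPKM), Eno1 (141 ± 22.2 to 97.5 ± 5.16 RPKM) and Ldha (129 ± 26.6 to 81.4 ± 5.01 RPKM) fell. The neuronal enolase Eno2 (19.3 ± 1.35 to 33.7 ± 3.01 RPKM), Pfkp (2.66 ± 0.618 to 5.92 ± 1.16 RPKM), Hk1 (17.8 ± 2.15 to 23.4 ± 0.542 RPKM) and Ldhb (234 ± 18.2 to 303 ± 22.4 RPKM, adjusted p up to 0.105 without E17.5 replicate 2 or 3 or P0 replicate 3) rose, so the paired isoforms Ldha and Ldhb, Eno1 and Eno2, and Pfkl and Pfkp moved in opposite directions. These pairs were picked out after their values were seen. The nuclear genes of oxidative phosphorylation stayed close to level, with 3 of 78 higher, 0 lower in limma and a median of -0.02. At an unadjusted p under 0.05, 3 were lower. Without P0 replicate 2, 17 of the 78 were lower. In the hypoxia list 4 of 26 rose and 3 fell (15.4% and 11.5%, near the 17.3% and 15.6% of all genes). Vegfa, Slc2a1 and Pgk1 did not pass the test. Without E17.5 replicate 2 the risers of that list numbered 1, without E17.5 replicate 3 they numbered 2, and without P0 replicate 3 also 2. Of 40 genes of cholesterol and fatty acid synthesis and handling, 11 rose and 2 fell, among them Apoe, which carries lipids between cells (63.7 ± 13.3 to 153 ± 29.7 RPKM), and the sterol enzyme Hsd17b7 (27.8 ± 1.89 to 45.1 ± 4.08 RPKM). The risers were 27.5% and the fallers 5.0% of that list, against 17.3% and 15.6% of all genes. The risers numbered 6 without E17.5 replicate 2 and 7 without E17.5 replicate 3, while the 2 fallers became 5 without P0 replicate 2.

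Of 50 measured metallothioneins and antioxidant enzymes, 17 rose and 1 fell, with a median of 0.20, and 32 did not pass the test. Of the 17, 3 stayed under 5 RPKM on average at both ages, and the fallers became 7 without P0 replicate 2. Sod3, the extracellular superoxide dismutase, was at 0.673, 0.904 and 0.556 RPKM at E17.5, then 6.35, 7.89 and 5.79 RPKM at P0 (log2 change 2.16 ± 0.13 SE, adjusted p = 5.87e-06). The metallothionein Mt1 was at 1.53, 2.28 and 1.35 RPKM and then 7.06, 9.37 and 9.17 RPKM, and Mt2 was at 0.173, 0.5305 and 0.401 RPKM and then 2.07, 3.43 and 2.65 RPKM. All 3 genes were under 3 RPKM in every E17.5 library, and the ages did not overlap. Gpx2, a glutathione peroxidase of epithelia, was at 35.1, 3.06 and 13.2 RPKM and then 78.3, 77.8 and 63.1 RPKM. Its E17.5 libraries differed more than 10-fold among themselves, and the standard error of its log2 change, 2.53 ± 0.59 (SE), is wide. More abundant members with smaller rises were the iron store Fth1 (454 ± 25.5 to 707 ± 96.8 RPKM), Gpx4, which reduces lipid peroxides (172 ± 17.4 to 253 ± 26.4 RPKM), and Txnip, the thioredoxin inhibitor (179.7 ± 16.5 to 259 ± 12.7 RPKM). Nfe2l2, the factor that turns on many antioxidant genes, rose from 14.05 ± 0.532 to 22.2 ± 2.38 RPKM, while its targets Hmox1, Srxn1 and Gclm did not pass the test.

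Metallothionein genes are driven through metal response elements, bound by the factor MTF-1. The promoters of the pair are shown because both genes rose together from low levels. Each is the 250 bases before the annotated start, from RefSeq on GRCm38.p6, with capitals marking the core TGCGCNC or TGCACNC on either strand.
Mt1, chr8:94178839-94179088, plus strand: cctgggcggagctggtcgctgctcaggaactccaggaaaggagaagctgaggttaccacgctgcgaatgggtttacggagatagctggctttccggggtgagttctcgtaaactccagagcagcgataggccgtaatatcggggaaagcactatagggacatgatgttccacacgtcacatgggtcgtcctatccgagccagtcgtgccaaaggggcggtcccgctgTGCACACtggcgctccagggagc
Mt2, chr8:94172368-94172617, plus strand: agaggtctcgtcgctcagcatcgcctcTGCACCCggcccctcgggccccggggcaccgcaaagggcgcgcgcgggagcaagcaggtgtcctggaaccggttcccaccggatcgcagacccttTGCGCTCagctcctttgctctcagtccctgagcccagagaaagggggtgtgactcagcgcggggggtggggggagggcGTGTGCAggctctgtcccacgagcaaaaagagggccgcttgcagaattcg
In these windows Mt1 held 1 match, 23 bases before the start, and Mt2 held 3, of which the nearest began 50 bases before it. Bases after the annotated start were not searched, so these are not counts of elements in the whole promoter. Whether the annotated start is the one used in the utricle was not tested. The core occurs in 21.4% of 32851 such windows and at least 2 times in 5.17%. It was found in 4 of the 14 risers of the list with a window (Gstm1, Mt1, Mt2 and Txnip) and in 11 of 42 measured members with one.

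Of 19 measured clock genes, 9 were higher, 2 lower and 8 not called, with a median of 0.29. Of the 9, 4 stayed under 5 RPKM on average at both ages, and 3 were called higher when the test was limited to genes averaging 10 RPKM or more. Nr1d1, the heme-binding repressor of the clock, was at 4.11, 3.47 and 3.36 RPKM and then 7.87, 9.15 and 11.01 RPKM (log2 change 1.15 ± 0.12 SE, adjusted p = 0.000128). Dbp, an output factor that binds D-boxes, was at 2.06, 1.17 and 1.13 RPKM and then 3.47, 3.96 and 3.76 RPKM, and its relative Tef went from 17.3 ± 1.39 to 28.9 ± 2.37 RPKM. Per3, a period protein, was at 5.02, 4.45 and 5.96 RPKM and then 9.48, 7.96 and 10.7 RPKM (adjusted p = 0.0014). Both Arntl, an activator of the clock, and Nr1d1, which represses it, rose, Arntl from 12.4 ± 1.02 to 17.9 ± 1.36 RPKM. Nfil3, which competes with Dbp for D-boxes, fell from 11.3 ± 0.838 to 8.84 ± 1.05 RPKM (adjusted p up to 0.103 without E17.5 replicate 1 or 2 or P0 replicate 1 or 3), and Clock, Per1, Per2, Cry1 and Cry2 did not pass the test. The labels give no time of day for the dissections, so time of collection and age cannot be told apart.

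The Per3 promoter is shown because it was the single window among the 9 clock risers to hold the D-box TTATGTAA, in capitals.
Per3, chr4:151044666-151044915, minus strand: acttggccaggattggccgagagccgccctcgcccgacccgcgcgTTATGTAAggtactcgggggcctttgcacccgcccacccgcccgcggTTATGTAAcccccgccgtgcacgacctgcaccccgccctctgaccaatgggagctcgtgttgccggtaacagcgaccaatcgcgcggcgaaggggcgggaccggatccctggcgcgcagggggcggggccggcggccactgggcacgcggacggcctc
It held 2 matches, beginning 205 and 158 bases before the start. The D-box occurs in 0.819% of the 32851 windows, and 6 windows hold 2 or more. The E-box CACGTG, bound by Clock and Arntl, occurs in 6.02% of windows. It was found in 2 of the 9 risers (Bhlhe41 and Tef) and in 4 of 15 measured clock genes with a window, the others being Cry1 and Per1. These counts are of genes, some of which have more than 1 window, so they are not set against the share of windows.

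Hormone-responsive lists were mixed. In the glucocorticoid list 6 of 22 rose and 3 fell (27.3% and 13.6%, against 17.3% and 15.6% of all genes). Risers were Nr3c1, Pdk4, Mt1 and Mt2, Klf9 (11.1 ± 0.949 to 15.3 ± 0.824 RPKM) and Cebpd (1.004 ± 0.558 to 2.71 ± 0.624 RPKM), while Fkbp5 fell from 5.35 ± 0.336 to 3.13 ± 0.438 RPKM and Tsc22d3, Per1 and Sgk1 did not pass the test. The receptor Nr3c1 was at 4.34, 4.07 and 4.17 RPKM and then 5.11, 5.43 and 4.84 RPKM, at the edge of the threshold (adjusted p = 0.0497, adjusted p up to 0.161 without E17.5 replicate 1, 2 or 3 or P0 replicate 1, 2 or 3). In the thyroid list 4 of 11 rose (36.4%) and 2 fell (18.2%, near the 15.6% of all genes), with a median of 0.085. Risers included Klf9, Hcfc1r1 (42.8 ± 4.01 to 68.6 ± 8.24 RPKM) and the receptor gene Thra (23.5 ± 1.64 to 29.4 ± 0.973 RPKM, adjusted p up to 0.0663 without E17.5 replicate 2 or 3), and Crym, which binds thyroid hormone, fell from 18.1 ± 2.01 to 11.4 ± 1.83 RPKM.

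**Figure D4:**
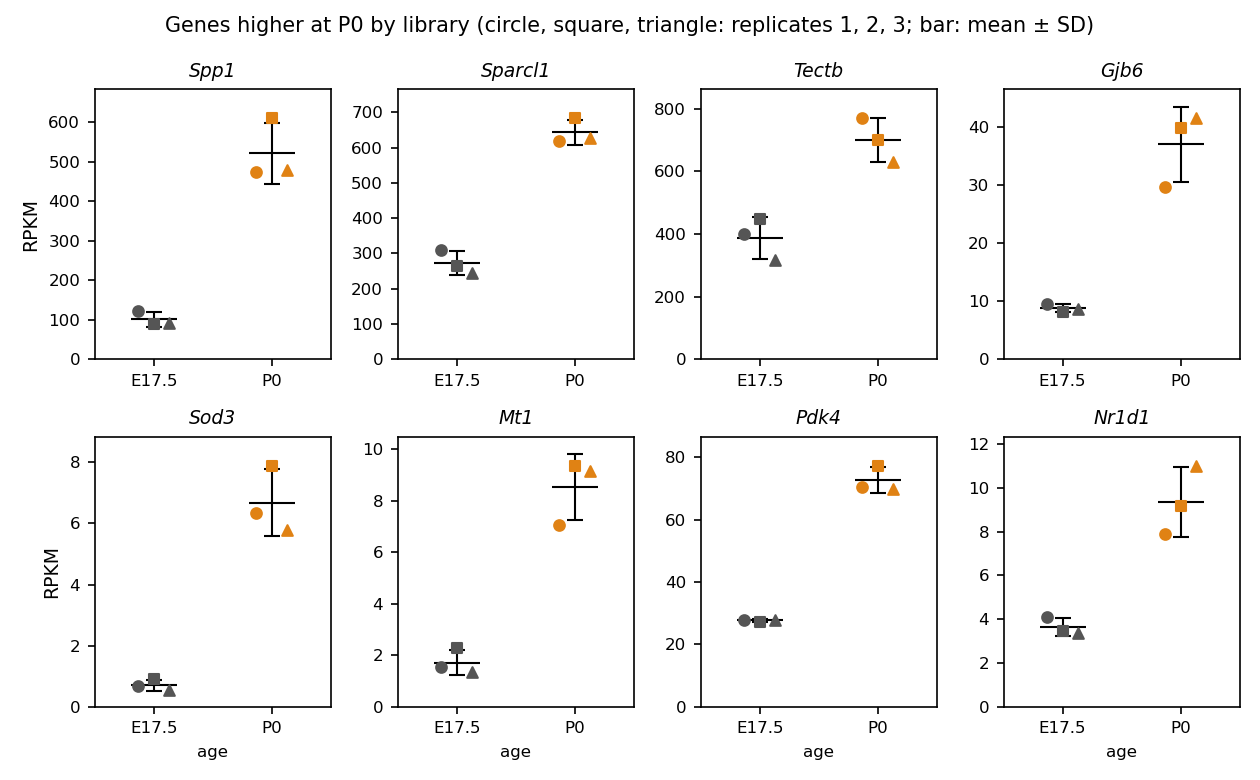
RPKM (y axis, from 0) of 8 genes that rose, by age (x axis), 1 point per library with replicates 1, 2 and 3 as circle, square and triangle, and the mean ± SD as bars. The ages do not overlap in any panel, and the scale runs from under 10 RPKM for Sod3 and Mt1 to 770 RPKM for Tectb.

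Of 14 measured genes of the retinoic acid pathway, 6 rose and 3 fell (42.9% and 21.4%, against 17.3% and 15.6% of all genes). Among the enzymes that make retinoic acid, Aldh1a3 fell by 80.9 RPKM, from 240.4 ± 14.7 to 159 ± 17.95 RPKM, and Aldh1a1 rose from 12.6 ± 1.53 to 27.96 ± 5.79 RPKM. Dhrs3, which returns retinal to retinol, was at 13.5, 10.8 and 10.1 RPKM and then 25.4, 29.1 and 31.99 RPKM (adjusted p = 6.49e-05). Crabp2, which carries retinoic acid to its nuclear receptors, was at 63.9, 64.8 and 57.8 RPKM and then 20.3, 33.1 and 27.6 RPKM (log2 change -1.20 ± 0.15 SE, adjusted p = 0.000367). The receptor Rarg rose from 13.6 ± 1.35 to 20.03 ± 2.84 RPKM.

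In the Wnt pathway 10 of 49 rose and 8 fell, shares close to those of all genes (17.3% and 15.6%), and the fallers numbered 3 to 5 without E17.5 replicate 1 or 2 or P0 replicate 1 or 3. Rspo3, a ligand of the Lgr receptors, was at 2.98, 3.19 and 2.53 RPKM and then 8.56, 11.8 and 11.01 RPKM (log2 change 1.55 ± 0.12 SE, adjusted p = 2.33e-05). Dkk3, a secreted relative of Wnt inhibitors, went from 55.6 ± 2.29 to 112 ± 8.01 RPKM, and Frzb, which binds Wnt ligands, from 8.35 ± 2.501 to 18.9 ± 6.21 RPKM. Axin2, a common target of the pathway, rose from 7.54 ± 0.344 to 10.4 ± 0.217 RPKM. Among other guidance and adhesion genes, 17 of 48 rose (35.4%) and 8 fell (16.7%, near the 15.6% of all genes). The risers were led by Sema6d, a transmembrane semaphorin, at 11.8, 10.96 and 9.93 RPKM and then 36.8, 29.2 and 39.2 RPKM (adjusted p = 1.56e-05). The adhesion protein Cntn1 went from 23.9 ± 2.22 to 47.5 ± 5.53 RPKM. Neuronal markers rose in 9 of 11, 3 of them under 5 RPKM on average at both ages, and fell in 2, with summed levels of 348.4 to 374.4 RPKM and then 398.4 to 424.4 RPKM. Hair cells express several of them, such as Snap25 and Pcp4, and their part in these rises was not tested.

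Genes of fetal growth were prominent among falls outside the cell cycle. Of 27 measured imprinted and fetal growth genes, 13 fell and 1 rose, with a median of -0.33. Dlk1, an imprinted relative of Notch ligands, was at 54.5, 69.6 and 53.5 RPKM at E17.5, then 10.2, 14.4 and 12.3 RPKM at P0. Every P0 library lay far below every E17.5 library (log2 change -2.18 ± 0.13 SE, adjusted p = 7.6e-06). Igf2, the fetal growth factor, was at 26.8, 22.4 and 20.9 RPKM and then 9.79, 14.03 and 11.6 RPKM (log2 change -0.93 ± 0.13 SE, adjusted p = 0.000646). Igf1, the growth factor that dominates after birth, rose from 6.06 ± 0.928 to 9.84 ± 1.17 RPKM, and the shared receptor Igf1r fell from 20.9 ± 0.255 to 14.6 ± 1.27 RPKM. Hmga2, a chromatin protein of growing fetal tissue, was at 13.3, 13.8 and 11.5 RPKM and then 2.71, 3.84 and 3.88 RPKM (adjusted p = 1.73e-05), and the RNA-binding proteins of the same fetal program, Igf2bp1 (8.94 ± 0.907 to 3.47 ± 0.5497 RPKM) and Igf2bp3 (13.8 ± 1.503 to 7.61 ± 0.0742 RPKM), fell too.

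Further imprinted genes that fell were Grb10, which restrains insulin-like signalling (82.2 ± 1.03 to 43.8 ± 4.94 RPKM), Peg3 (63.9 ± 3.01 to 39.1 ± 4.66 RPKM), Mest (301 ± 15.7 to 209.5 ± 20.6 RPKM) and the noncoding Meg3 (263 ± 61.7 to 149 ± 23.04 RPKM), which lies in the same imprinted region as Dlk1. H19, Cdkn1c, Igf2r and Peg10 did not pass the test. Of the IGF binding proteins, Igfbp2 (119 ± 19.3 to 193 ± 38.7 RPKM) and Igfbp5 (286 ± 12.5 to 379 ± 21.2 RPKM, adjusted p = 0.09 without E17.5 replicate 2) rose.

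Immediate early genes, which respond within minutes to growth factors and to tissue handling, included many fallers. Of 32 measured, 14 fell and 2 rose, with a median of -0.38. Fos was at 26.1, 25.2 and 28.2 RPKM and then 8.21, 8.42 and 9.19 RPKM (log2 change -1.52 ± 0.08 SE, adjusted p = 4.77e-06). Jun was at 142, 177 and 173 RPKM and then 57.7, 76.9 and 68.05 RPKM, so it fell by 96.4 RPKM, and Atf3 was at 71.7, 94.3 and 86.03 RPKM and then 32.1, 42.3 and 36.96 RPKM. Dusp1 (33.02 ± 0.906 to 15.1 ± 2.88 RPKM), Klf6 (87.6 ± 3.797 to 51.4 ± 7.13 RPKM) and Btg2 (48.8 ± 5.73 to 28.2 ± 3.04 RPKM) fell too. Egr1, Junb, Zfp36 and the heat shock genes Hspa1a and Hspa1b did not pass the test. The heat shock genes Hspb1 (14.7 ± 2.43 to 30.3 ± 10.1 RPKM) and Hsph1 (31.5 ± 3.21 to 41.9 ± 1.36 RPKM) were the 2 risers, which became 7 without P0 replicate 1. The labels do not say how long dissection took at either age, so handling and age cannot be told apart.

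Of 21 measured genes of the FGF pathway, 9 fell, 2 rose and 10 did not pass the test, with a median of -0.11. Spry1 (20.95 ± 1.84 to 11.5 ± 1.32 RPKM) and Spry2 (39.8 ± 4.26 to 22.6 ± 2.45 RPKM), inhibitors induced by the pathway, and its target factors Etv4 (19.97 ± 3.88 to 11.6 ± 1.17 RPKM) and Etv5 (77.6 ± 4.59 to 50.7 ± 4.42 RPKM) were among them. Dusp6, the phosphatase that shuts off ERK, was at 46.02, 79.8 and 80.5 RPKM and then 27.9, 36.9 and 33.3 RPKM, with E17.5 replicate 1 far below the other E17.5 libraries (adjusted p = 0.0039). The receptors Fgfr1 and Fgfr2 did not pass the test.

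In the TGF-beta and BMP list 14 of 38 fell and 9 rose, 4 of the risers under 5 RPKM on average at both ages. Of that list 36.8% fell and 23.7% rose, against 15.6% and 17.3% of all genes. Fallers included the activin antagonist Fst (7.36 ± 0.755 to 1.78 ± 0.4405 RPKM), its relative Fstl1 (288 ± 15.7 to 162 ± 16.3 RPKM), the matrix protein Smoc2 (13.9 ± 0.933 to 4.06 ± 1.01 RPKM) and the Id genes above. Risers included the ligands Bmp2 (1.23 ± 0.337 to 3.95 ± 0.533 RPKM) and Bmp6 (1.61 ± 0.365 to 4.04 ± 0.621 RPKM), both low. In the Hippo list 7 of 30 fell and 3 rose (1 without E17.5 replicate 2, E17.5 replicate 3 or P0 replicate 3), and targets of the pathway moved both ways. Tead2, a DNA-binding partner of Yap, fell from 63.5 ± 5.86 to 32 ± 3.61 RPKM, and the target Cyr61 from 168 ± 26.6 to 108 ± 19.2 RPKM. The target Ctgf rose and Ankrd1 fell, each with E17.5 replicate 1 standing apart. Ctgf was at 315, 137 and 160.2 RPKM and then 342, 387 and 386 RPKM (adjusted p = 0.0179, adjusted p up to 0.0647 without E17.5 replicate 2 or 3 or P0 replicate 3). Ankrd1 was at 13.4, 2.17 and 4.29 RPKM and then 1.02, 1.02 and 1.24 RPKM.

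**Figure D5:**
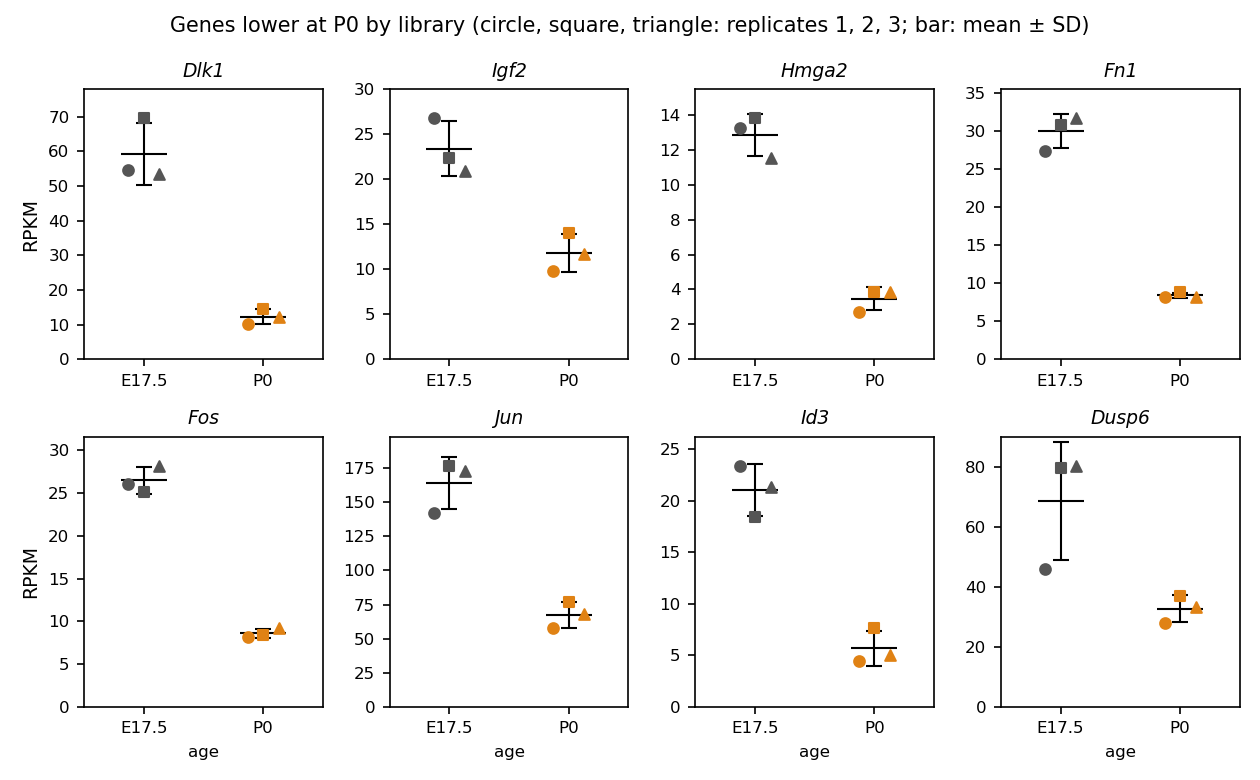
RPKM (y axis, from 0) of 8 genes that fell, by age (x axis), 1 point per library with replicates 1, 2 and 3 as circle, square and triangle, and the mean ± SD as bars. The ages do not overlap in any panel, and E17.5 replicate 1 is the low library for Dusp6.

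Extracellular matrix genes moved both ways, with 18 of 60 lower, 14 higher and a median of 0.00, and 3 of the 14 stayed under 5 RPKM on average at both ages. Fn1, fibronectin, was at 27.5, 30.8 and 31.8 RPKM and then 8.24, 8.84 and 8.17 RPKM (log2 change -1.72 ± 0.08 SE, adjusted p = 2.44e-06). The proteoglycan genes Vcan (9.31 ± 0.291 to 3.19 ± 0.184 RPKM), Dcn (15.5 ± 0.757 to 5.75 ± 0.619 RPKM) and Lum (7.77 ± 1.14 to 2.01 ± 0.711 RPKM) fell, as did Otor, otoraplin, from 11.4 ± 3.01 to 1.98 ± 0.976 RPKM. Collagens of cartilage-like matrix, which the otic epithelium also makes, split, with Col2a1 lower (254 ± 19.5 to 176 ± 12.9 RPKM) and Col9a1 (269 ± 30.7 to 353 ± 37.2 RPKM, adjusted p up to 0.14 without E17.5 replicate 2 or 3 or P0 replicate 1 or 3) and Col11a2 (109 ± 12.4 to 166 ± 12.2 RPKM) higher. The count of higher matrix genes was 7 without E17.5 replicate 2 and 6 without E17.5 replicate 3.

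Markers of mesenchyme and otic capsule, the tissue under and around the epithelium, fell in 10 of 16 and rose in 1, with a median of -0.58. Their sum was 415.6 to 479.8 RPKM at E17.5 and 293.1 to 353.0 RPKM at P0, most of it Col2a1. The fibroblast collagens Col1a2 (4.302 ± 0.713 to 0.992 ± 0.223 RPKM) and Col3a1 (4.03 ± 1.21 to 1.04 ± 0.269 RPKM) and the capsule gene Coch (4.82 ± 0.609 to 0.707 ± 0.453 RPKM) were low at E17.5 and at or under about 1 RPKM at P0. Several fallers of the imprinted and matrix lists, such as Dcn and Lum, are mesenchyme genes, and the part of mesenchyme in those falls was not tested. Hemoglobin genes were also lower, Hba-a1 at 40.1, 17.8 and 29.05 RPKM and then 5.35, 14.9 and 14.1 RPKM (adjusted p up to 0.0524 without E17.5 replicate 1 or 3), and Hbb-b1 from 22.7 ± 8.17 to 8.53 ± 3.82 RPKM. Of 21 listed leukocyte markers only Ighm and Cd68 were in the table. Ighm, the immunoglobulin mu heavy chain of B cells, had the largest log2 rise of all the called genes, from 0.931, 0.355 and 0.162 RPKM to 23.1, 13.8 and 28.2 RPKM (log2 change 3.91 ± 0.25 SE, adjusted p = 7.6e-06), while Cd68 did not pass the test.

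Antigen presentation and interferon genes rose in 10 of 20 in limma, with 0 fallers, also at an unadjusted p under 0.05, and a median of 0.34. Of the 10, 6 stayed under 5 RPKM on average at both ages, and the 10 became 6 without E17.5 replicate 2 and 5 without E17.5 replicate 3. The abundant members were B2m, the light chain of class I molecules (47.5 ± 2.82 to 62.1 ± 7.09 RPKM, adjusted p up to 0.0703 without E17.5 replicate 2 or 3 or P0 replicate 3), Ly6e (55 ± 7.14 to 75.2 ± 13.1 RPKM, adjusted p up to 0.121 without E17.5 replicate 2 or 3 or P0 replicate 2 or 3) and Tapbp, which loads peptides (24.5 ± 2.69 to 35.1 ± 4.26 RPKM).

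Splicing and RNA-binding genes were lower in 24 of 48 and higher in 3, with a median of -0.27, and the count of fallers was 9 without E17.5 replicate 2 and 15 without E17.5 replicate 3. Hnrnpa3, an abundant nuclear RNA-binding protein, was at 403, 393 and 367 RPKM and then 244, 272 and 217 RPKM, and fell by 144 RPKM (adjusted p = 0.00205). Hnrnpm (89.4 ± 3.73 to 54.4 ± 3.98 RPKM), Hnrnpd (143 ± 3.28 to 93.4 ± 6.57 RPKM) and Hnrnpa2b1 (314 ± 7.47 to 204 ± 15.9 RPKM) fell with it. The risers were Cirbp, the cold-inducible RNA-binding protein (57.97 ± 5.86 to 86.1 ± 8.62 RPKM), Rbfox3, a neuronal splicing factor (1.09 ± 0.149 to 3.55 ± 0.176 RPKM), and Msi1 (91.5 ± 7.09 to 117 ± 12.6 RPKM, adjusted p up to 0.133 without E17.5 replicate 2 or 3 or P0 replicate 3).

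Chromatin regulators fell in 16 of 63 and rose in 1 (25.4% and 1.59%, against 15.6% and 17.3% of all genes). Ezh2, the methyltransferase of Polycomb repressive complexes in dividing cells, fell from 26.7 ± 0.867 to 15.9 ± 0.943 RPKM, and Uhrf1, which recruits the maintenance DNA methyltransferase, from 10.1 ± 0.408 to 3.701 ± 0.161 RPKM. In the list of tubulins, actins and neurite cytoskeleton, 14 of 32 fell and 5 rose (median -0.23). The fallers were 43.8% of that list and the risers 15.6%, near the 17.3% of all genes. Stmn1, which destabilises microtubules, was at 162, 139 and 126 RPKM and then 63.7, 77.1 and 60.8 RPKM (adjusted p = 0.000236), and the tubulins Tubb5 (139.9 ± 13.8 to 71.7 ± 9.797 RPKM) and Tubb2b (135 ± 15.8 to 82.6 ± 9.52 RPKM) fell. Tuba1a fell by 169 RPKM, from 772 ± 34 to 603 ± 45.8 RPKM (adjusted p = 0.0461, adjusted p up to 0.178 without E17.5 replicate 1, 2 or 3 or P0 replicate 1 or 3). Ribosomal protein genes gave 0 higher and 0 lower of 83 in limma, and 0 at an unadjusted p under 0.05 (median -0.08), although 11 were lower after quantile normalization and 13 were lower without P0 replicate 2. Proteasome genes gave 3 lower and 1 higher of 34, and 19 lower without that library.

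Epithelial junction genes were divided, 9 of 39 higher (5 without E17.5 replicate 3 or P0 replicate 3) and 7 lower. These shares, 23.1% and 17.9%, were not far from those of all genes (17.3% and 15.6%). Cldn6, a claudin typical of embryonic epithelia, was at 309, 314 and 266 RPKM and then 147, 182 and 151 RPKM, and fell by 136 RPKM (log2 change -0.89 ± 0.12 SE, adjusted p = 0.000529). Krt20, a keratin (0.648 ± 0.179 to 2.87 ± 0.5503 RPKM), and Jup, plakoglobin of desmosomes (62.9 ± 6.27 to 88.96 ± 9.62 RPKM), rose. Of 41 inner ear transcription factors, 14 fell (34.1%) and 8 rose (19.5%, near the 17.3% of all genes). Irx2 was at 42.9, 44.6 and 41.96 RPKM and then 67.3, 72.02 and 92.4 RPKM, Hmx2 (12.2 ± 0.274 to 18.99 ± 2.75 RPKM) and Hmx3 (19.5 ± 2.24 to 29.8 ± 6.33 RPKM) rose, and Tcf12 (29.1 ± 0.674 to 18.3 ± 1.59 RPKM), Grhl2 (17.9 ± 1.75 to 10.98 ± 0.914 RPKM) and Eya2 (19.9 ± 1.34 to 14.1 ± 1.43 RPKM) fell. The fallers numbered 9 without E17.5 replicate 2, 8 without E17.5 replicate 3 and 7 without P0 replicate 3.

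Some named genes share exons with a gene on the other strand in GENCODE vM21, so without a stated strand rule their reads cannot be told apart. They include Nr1d1 with Thra, Dbp with Sphk2, Atp1b1 with Nme7, Tead2 with Cd37, Hcfc1r1 with Thoc6, Cebpd with Spidr, Pfkp with Pitrm1, P2rx3 with Ssrp1, Igf2bp3 with Malsu1, Mest with Copg2, Tpi1 with Spsb2, Kcnq1 with Kcnq1ot1, Bmp6 with Txndc5, Myo15b with Recql5, Igf2 with Igf2os and Fn1 with Apol7d. Values of gene families with near-identical members, the tubulins, heterogeneous nuclear ribonucleoproteins, hemoglobins and glutathione transferases, are uncertain in the same way.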

How the data were processed

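RNA from the utricle sensory epithelium was sequenced in 3 libraries per age, and the 6 libraries of E17.5 and P0 were analysed. The authors deposited RPKM values, already normalised for gene length and library size, for 10102 genes. Partek and the mm8 build are named per the submitters' processing notes, and the aligner, annotation, counting rule and strand handling are not given in any source used here. RPKM values allow no count-based test.

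Levels were fitted as log2(RPKM + 1) with 1 mean per age in limma 3.58.1 (R 4.3.3, empirical Bayes with an intensity trend), adjusted by Benjamini-Hochberg over all genes and called under 0.05. An exact test of 3 against 3 cannot go below 0.1. Tested on simulated data for P0 against E17.5 with 10102 genes, the fit recovered 58.2% of 1.5-fold, 95.5% of 2-fold and 100% of 4-fold changes, with 7 false calls. With no change there were 0 calls. The simulated noise was independent between genes, and 67, 67 and 66 genes were changed by these folds, against 3323 called in the data. It held no deviations shared by the genes of a library, so it cannot give the recovery or false calls of the real fit.

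The members and the 51 gene lists were chosen with earlier results of these data known. Genes are described by counts and medians beside those of all genes, with no set test. Named genes are the 12 largest rises and falls outside the cell cycle with a mean of at least 5 RPKM at 1 age and no overlap, the 6 largest changes in RPKM, in each list the 4 genes of lowest p, and 8 regulators. Further members were chosen after their values were seen. The 16 alternatives covered pseudocounts, filters, scalings, fits with all 9 libraries or a replicate block, and each library left out. A fit with U1 as a covariate was added after seeing the data. Promoters came from RefSeq (GRCm38.p6), and exon overlaps from GENCODE vM21, which matched 9968 of the symbols. The 18 symbols turned into dates were not named, and some genes the rule names are not reported here.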

Additional observations from a re-analysis of the deposited data

How the results depend on the processing

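No called change of a gene named by the rule reversed under the 17 settings. Direction was not checked where a gene was called neither in the main fit nor in the setting. Of the 200 genes named by the rule, 178 were called, 158 of them in every setting that tested them. The settings with a minimum mean RPKM did not test the lower genes. Leaving out each library in turn gave 1197 to 1730 higher and 926 to 1930 lower genes, the ends for lower genes without E17.5 replicate 2 and without P0 replicate 2. It gave 194 to 352 genes lower by at least 10 RPKM and 297 to 364 higher, 213 to 291 higher and 143 to 284 lower list members, 533 to 632 and 334 to 421 genes past 1.5-fold, and 121 to 151 and 97 to 115 past 2-fold. A mean of at least 10 RPKM, which tests fewer genes, left 961 higher and 929 lower genes, 276 and 172 past 1.5-fold, 60 and 32 past 2-fold, and 184 higher list members. A pseudocount of 5, which shrinks the change of low genes by construction, left 263 and 176 past 1.5-fold and 42 and 30 past 2-fold. The replicate block gave 1768 higher and 1589 lower genes. Deviations of same-numbered libraries correlated at -0.156, -0.211 and -0.00052, which shows no sign of pairing by number. Between differently numbered libraries the highest were 0.262 (E17.5 replicate 1 with P0 replicate 2) and 0.2 (E17.5 replicate 2 with P0 replicate 3). Deviations within an age are tied to each other, so these correlations cannot exclude a pairing. The other settings, the covariate U1 among them, kept the counts of higher and lower genes within 1.5 times. Fallers numbered 5 in the Wnt list with all 9 libraries or with U1 and 8 among inner ear factors with all 9 libraries, and quantile normalization left 6 higher antigen presentation genes. Counts of 3 or fewer members of a list often moved past 1.5 times when a library was left out. Changes under 1.5-fold may be missed. The simulated data, with far fewer changed genes than were called here, cannot say how often. In the data, 586 higher and 349 lower genes of the 3323 called reached 1.5-fold, so most calls were of smaller changes.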

Other observations

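Sex-linked RNA differed between the ages. All 6 libraries held both Xist, the noncoding RNA of the inactive X chromosome, and Y-linked RNA. Each library therefore held RNA of more than a single animal. Ddx3y was at 11.74, 12.29 and 12.36 RPKM at E17.5 and at 7.612, 5.004 and 4.955 RPKM at P0, and Eif2s3y was at 19.57, 17.3 and 21.16 RPKM and then 14.09, 8.669 and 8.048 RPKM. Neither gene's groups overlapped. Xist was at 80.79, 97.41 and 95.23 RPKM and then 105.6, 105.5 and 114.4 RPKM, which did not pass the test. The part of the sex mix in the other differences was not tested.

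A few large rises belong to none of the groups described. Fndc7, a fibronectin type III domain gene, was at 3.13, 3.28 and 2.56 RPKM at E17.5 and at 25.0, 22.5 and 19.2 RPKM at P0. Scrg1 and the stress-responsive gene Nupr1 rose from under 2.1 RPKM in every E17.5 library. Ccl21c, a chemokine whose row is identical to that of the copy Gm10591, fell from 19.6, 14.9 and 14.0 RPKM to 6.72, 3.15 and 2.58 RPKM.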
